A study of Vitis vinifera with 7 samples.

Results

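The step from veraison to the ripe berry was described in the white grapevine cultivar Sauvignon blanc (Vitis vinifera) by setting 1 array of ripe berry tissue (EL-38) against 3 arrays of berry tissue at veraison (EL-34). These are 4 of the 7 arrays of the series, and all 28811 probes of the deposited table were used. EL numbers count the stages of the grapevine growth scale. For each stage ground tissue was pooled, and the 3 veraison arrays came from separate RNA extractions out of 1 pool, so their spread is that of extraction, labelling and hybridisation and says nothing of variation between vines or berries. The other 3 arrays were of green berries (EL-31); they enter the estimate of the spread, and their levels are given beside those of the probes described. No genotype, treatment or age other than the stage separates the groups. The ripe stage was not replicated, so no ripe value below has an error of its own.

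Veraison is the point at which a grape berry leaves its firm, green and acid state and starts to ripen. From then on the berry softens, takes up water and stores glucose and fructose, while malic acid and chlorophyll decline. White cultivars do not build up the red anthocyanins in the skin. In Sauvignon blanc, late ripening is also known as the time when green-smelling methoxypyrazines fall and precursors of the fruity thiol aromas build up. The probe identifiers of these arrays were not paired with genes here: 0 of the 28811 were found in the gene table used for names. Probes are therefore described by identifier, signal and behaviour only, and the tissue label could not be checked against marker genes. No probe sequence was given either, so none is shown.

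On the log2 scale the deposited signals ran from 4.06 to 15.99, and the medians of the 7 arrays lay within 0.0497 of each other. Array signals are relative to the RNA on the array, and in tissue a lower signal from fewer cells of a type cannot be told apart from less RNA per cell. Veraison array 2 stood apart from the other veraison arrays. It was at least 2-fold outside arrays 1 and 3 in 1480 probes (5.14%), 1334 of them lower and 146 higher. The same count was 18 for veraison array 1 against arrays 2 and 3, and 5 for veraison array 3. Among the green arrays it was 5, 8 and 346 for arrays 1, 2 and 3. A single extraction of a pool could thus deviate widely from its sisters, and the 1 ripe array offers no means of seeing whether it did. Against the same veraison arrays 1 and 3 the ripe array was at least 2-fold outside in 5256 probes (18.2%), with 2427 higher and 2829 lower.

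The ripe array lay above all 3 veraison arrays, by any margin, in 12139 probes (42.1%) and below all 3 in 8660 (30.1%). The remaining 8012 probes (27.8%) fell within the range of the veraison arrays. An array without any difference would also often lie outside the range of 3 others, so these shares alone do not show a change. Most of the departures were small. The ripe signal was at least 1 log2 unit, or 2-fold, outside the range of all 3 veraison arrays in 3116 probes (10.8%). Of these, 1540 (5.35%) were above and 1576 (5.47%) below, so gains and losses were about equal in number at that limit. The probes nearest to the limit had gaps of 1.0001 and 0.9995 above, and 255 probes lay within 0.1 log2 inside it against 331 outside. Below, the nearest gaps were 1.0003 and 0.9995, with 185 probes inside and 217 outside.

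Two-sided tests with limma took the spread of the ripe array to equal that of the replicated stages. They called 7039 probes (24.4%) at a Benjamini-Hochberg adjusted p under 0.05. They comprised 4153 higher (14.4%) and 2886 lower probes (10%) in ripe berries. An estimated difference of at least 2-fold was reached by 4037 of them (14%), 2154 higher (7.48%) and 1883 lower (6.54%). No called probe had its ripe value within the veraison range, and the construction of the test makes such a call unlikely from the start. Of the 3116 probes at least 2-fold outside all 3 arrays, 3045 were called, among them 1512 of the 1540 above and 1533 of the 1576 below. The range and the test use the same arrays, so neither supports the other. The number of calls was 12989 without veraison array 2 and 4412 without veraison array 3.

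Losses went further than gains. The gap to the nearest veraison array was at least 4-fold in 264 probes above and 542 below, at least 8-fold in 30 and 208, and at least 16-fold in 3 and 82. At 32-fold no probe was above and 26 were below, and 7 probes were at least 64-fold below all 3 veraison arrays. The median gap was 1.39 log2 among the 1540 probes above and 1.63 among the 1576 below. Without array 2 the order was the same, with 390 above and 885 below at 4-fold and 9 and 106 at 16-fold.

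**Figure D1:**
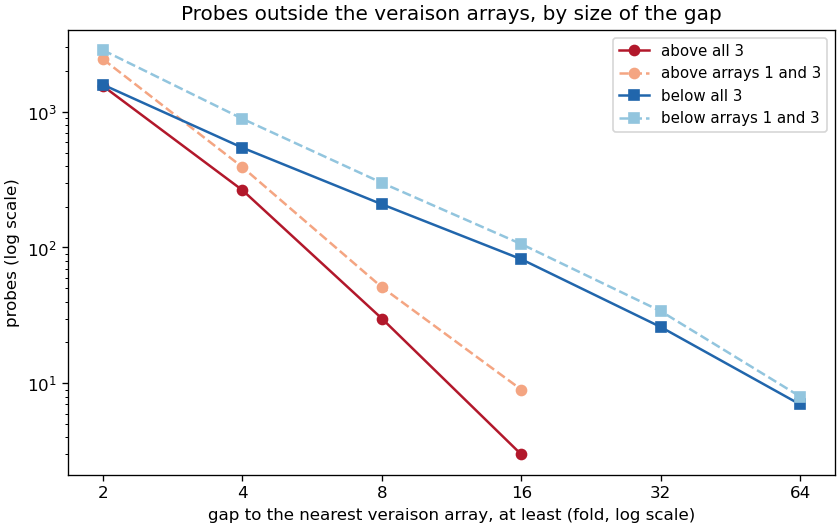
Number of probes (log scale) whose ripe signal was outside the veraison arrays by at least the fold on the horizontal axis (log scale), above (circles) or below (squares), for all 3 veraison arrays (solid lines) and for arrays 1 and 3 (dashed lines). The counts are close at 2-fold (1540 above, 1576 below all 3) and part at larger gaps, with 3 above and 82 below at 16-fold; at 32-fold and 64-fold no probe was above, so no point is drawn.

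The largest gains started from low to middle signals. VitusP00265477 had log2 signals of 7.24, 7.73 and 7.54 on veraison arrays 1, 2 and 3 and 12.07 on the ripe array. Its green signals were 7.90, 7.72 and 8.47, so the green and veraison arrays overlapped and the ripe array alone was high. The difference of 4.56 (SE 0.32) from the veraison mean of 7.50 ± 0.25 (SD, n = 3) had a limma adjusted p of 2.4e-04. VitusP00216833 was the next in the size of the gap, with 8.16, 8.27 and 8.09 at veraison and 12.44 when ripe. It too stood near its veraison level in green berries, at 8.12, 8.05 and 7.61. Its difference was 4.27 (SE 0.22, limma adjusted p 9.3e-05), and the gap to the nearest veraison array was 4.17.

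The largest losses were of probes that had been bright. VitusP00016977 had 13.54, 13.17 and 13.59 at veraison and 5.74 when ripe, a value in the lowest part of the scale. In green berries it had been brighter still, at 14.56, 14.50 and 14.50, above all veraison arrays. The difference was -7.69 (SE 0.20, limma adjusted p 1.1e-05). VitusP00016154 read 13.60, 13.57 and 13.58 at veraison, with an SD of 0.0137 (n = 3), and 6.90 when ripe. Its green signals of 12.93, 12.80 and 13.12 were below the veraison values, so its highest level was at veraison. The difference was -6.68 (SE 0.17, limma adjusted p 1.1e-05). For these 4 probes array 2 lay close to arrays 1 and 3, and their differences do not rest on it.

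**Figure D2:**
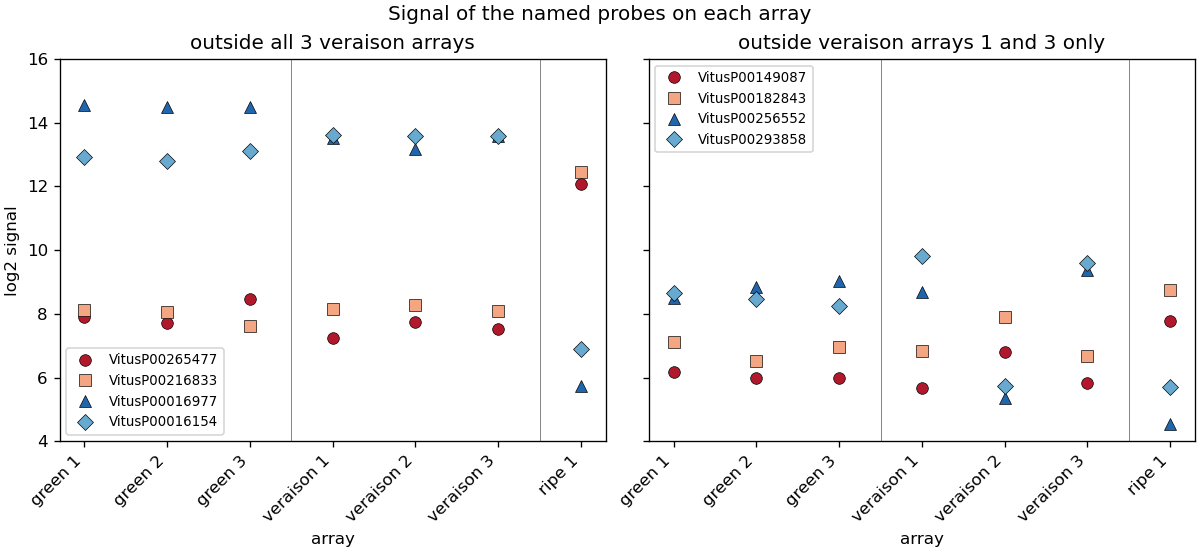
Log2 signal of 8 probes on each of the 7 arrays, with 1 point per probe and array; left, the probes with the largest gaps to all 3 veraison arrays, and right, those with the largest gaps to veraison arrays 1 and 3 only. On the left the ripe point stands alone and the veraison points of a probe are close together, while on the right veraison array 2 leaves arrays 1 and 3 toward the ripe array, down to 5.37 and 5.74 for the probes that were lower in ripe berries.

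The starting signal separated gains from losses. Probes were placed in 6 classes by the mean of their 3 veraison log2 signals. Among the 6422 probes that started under 6, 177 (2.76%) ended at least 2-fold above all 3 arrays and 0 below. From 6 to 8, 615 of 5251 probes (11.7%) were above and 191 (3.64%) below. The share of gains was highest in that class, which held 39.9% of all gains of this size. When 50 was added to each linear signal, which compresses dim values, the highest share of gains moved to the class from 8 to 10, with 8.19% against 3.88% from 6 to 8. The classes were then formed anew and none started under 6, so the class from 6 to 8 also took in dimmer probes. These shares are therefore of other sets of probes than those above.

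From 8 to 10 the directions were balanced, with 436 of 4975 probes (8.76%) above and 455 (9.15%) below. From 10 to 12, losses were the more frequent, with 243 of 6271 (3.87%) above and 485 (7.73%) below. From 12 to 14, 69 of 4852 probes (1.42%) were above and 360 (7.42%) below. Of the 1040 probes at 14 and over, 0 were above by 2-fold and 85 (8.17%) were below. The share of losses thus lay between 7.42% and 9.15% in the classes from 8 upward, while the share of gains fell from class to class. The even share of losses rested on array 2. Without it the losses were 16.7% from 8 to 10, 13.4% from 10 to 12, 11.3% from 12 to 14 and 10.8% at 14 and over, and 9.39% from 6 to 8. The gains without array 2 were 17.7% from 6 to 8, 15.04% from 8 to 10, 6.35% from 10 to 12 and 2.03% from 12 to 14.

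Both ends of the scale bound what could be seen. A probe that starts under 6 has less than 2 log2 units above the lowest deposited value of 4.06, and one over 15 has under 1 unit below the highest. Within the top class the ripe signal was above all 3 arrays in 321 probes and below in 464, with a largest gap upward of 0.94. Among called probes the directions turned at a higher class than in the ranges. In the class under 6, 510 were called higher and 33 lower; from 6 to 8 there were 1109 and 409, from 8 to 10 1043 and 715, and from 10 to 12 975 and 855. From 12 to 14 losses outnumbered gains, with 489 higher and 692 lower, and at 14 and over 27 were higher and 182 lower. The median SD between veraison arrays was 0.27 in the class from 6 to 8, 0.19 under 6 and 0.0945 at 14 and over.

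**Figure D3:**
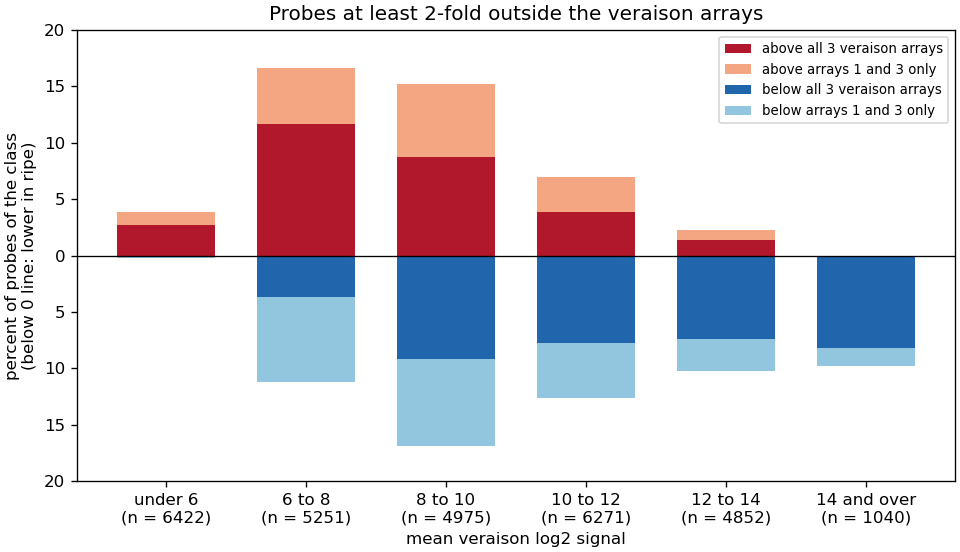
Percent of the probes of each starting class (mean veraison log2 signal) that were at least 2-fold outside the veraison arrays in ripe berries, with gains drawn upward and losses downward; dark bars are probes outside all 3 arrays and pale bars those outside arrays 1 and 3 only. Gains peak in the class from 6 to 8 (11.7%) and are absent at 14 and over, while losses outside all 3 arrays lie between 7.42% and 9.15% from 8 upward; with the pale bars added, losses are highest from 8 to 10.

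**Figure D4:**
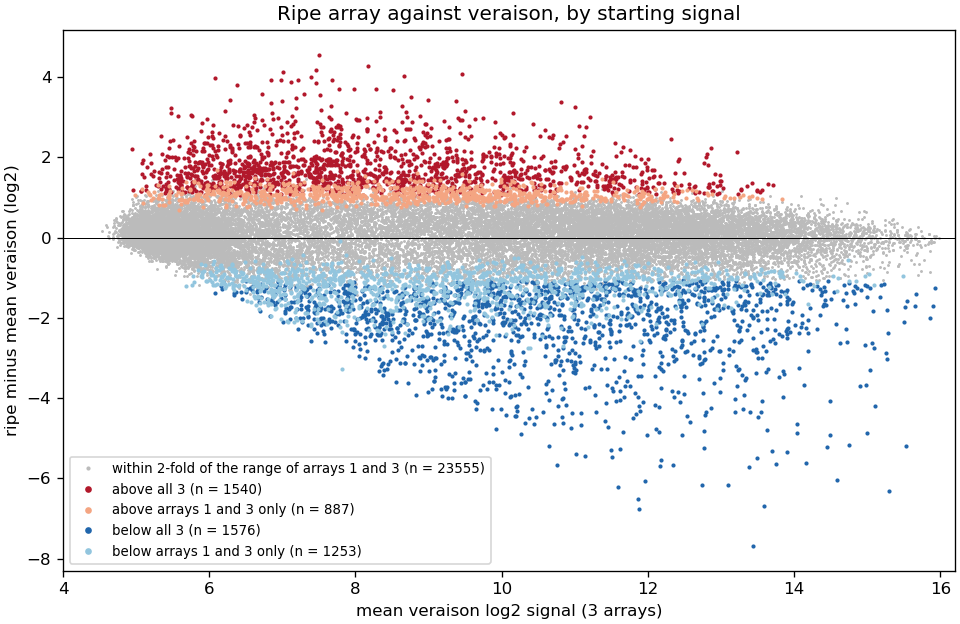
Ripe signal minus mean veraison signal (log2) against the mean veraison log2 signal, with 1 point for each of 28811 probes; colours mark probes at least 2-fold outside all 3 veraison arrays or outside arrays 1 and 3 only, and the other 23555 are grey. Losses reach -7.69 among bright probes, and the lower edge of the cloud slants because no signal falls below the bottom of the scale, whereas the largest gain is 4.56.

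The mean of the veraison arrays sets both the class and the difference, and an error in it would push dim probes up and bright probes down. With the class taken from array 1 and the difference as ripe minus array 3, so that no array served both, 18.7% of the probes from 6 to 8 were at least 2-fold higher and 9.85% lower. From 12 to 14 it was 2.24% higher and 12.4% lower. With array 3 in both roles the shares were 18.1% and 10.9% from 6 to 8, and 2.36% and 11.7% from 12 to 14. The order of gains and losses along the scale was the same in both. Arrays 1 and 3 lay close together and array 2 entered neither, so this says nothing of an error of array 2 in the mean.

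The ripe levels reached are given by the same classes. Of the 1540 gains, 550 ended between 8 and 10, 464 between 10 and 12, 230 between 12 and 14 and 40 at 14 or over. From a start under 8, 63 probes reached 10 or over, and 1 of them, VitusP00265477, reached 12 or over. Of the 1576 losses, 243 ended under 6, 476 between 6 and 8 and 457 between 8 and 10. Bright probes seldom went dark: of the 445 that started at 12 or over, 17 ended under 8, and of the 85 that started at 14 or over, 55 were still between 12 and 14.

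The gains had low signals in green berries as well. In green berries the median log2 signal of the 1540 probes was 7.29, 7.22 and 7.16. It was 7.79, 8.11 and 7.86 at veraison and 9.86 in the ripe berry. The 1576 losses ran the other way, with medians of 11.14, 11.16 and 11.07 in green berries, 10.60, 10.55 and 10.60 at veraison, and 8.28 when ripe. Over all 28811 probes the medians were between 9.17 and 9.22 on every array. These are medians over probes, and single probes such as VitusP00016154 did not follow them.

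A further 2140 probes (7.43%) were at least 2-fold outside veraison arrays 1 and 3 but less than 2-fold outside all 3, and so depend on array 2. They comprised 887 probes (3.08%) above and 1253 (4.35%) below arrays 1 and 3. Array 2 lay beyond the ripe array in 4 of the 887 and 402 of the 1253. The rest were outside all 3 arrays too, by less than 2-fold. Without array 2 the probes above would number 2427 in place of 1540, and those below 2829 in place of 1576. All 3 arrays thus kept 63.5% of the gains and 55.7% of the losses seen against arrays 1 and 3. Limma called 622 of the 887 (70.1%) and 191 of the 1253 (15.2%), where 24.4% of all probes were called. The 1253 had a median SD at veraison of 0.85, and the 887 had 0.31. A low value on array 2 raises that SD by construction.

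By starting class, the 1253 dependent losses were most frequent from 8 to 10 (383 probes, 7.70% of the class) and from 6 to 8 (396 probes, 7.54%). In the latter class they outnumbered the 191 losses outside all 3 arrays. They were less common among bright probes, with 135 (2.78%) from 12 to 14 and 17 (1.63%) at 14 and over. The 887 dependent gains were most frequent from 8 to 10, where they made up 6.45% of the class. A low value on array 2 also lowers the mean that sets the class, which moves dependent losses toward dimmer classes by construction. Classes were therefore also set by arrays 1 and 3 alone, for all losses against these arrays. Array 2 then lay at least midway from their mean to the ripe array in 48.9% of losses from 6 to 8. At 14 and over the share was 20.2%. Bright losses rested least on array 2 in both counts.

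The largest dependent losses had gaps to arrays 1 and 3 of 4.14 and 3.90 log2, and the largest dependent gains had 1.96 and 1.91. VitusP00256552 had 8.68, 5.37 and 9.38 on veraison arrays 1, 2 and 3 and 4.55 on the ripe array, with 8.51, 8.84 and 9.02 in green berries. Array 2 and the ripe array were low, and the other arrays were all within 1 unit of each other. VitusP00293858 had 9.82, 5.74 and 9.60 at veraison, 5.69 when ripe, and 8.66, 8.46 and 8.24 when green. Here array 2 differed from the ripe array by 0.0449. Neither was called, with limma adjusted p values of 0.13 (difference -3.26, SE 1.35) and 0.22 (difference -2.69, SE 1.44). Without array 2 the differences were -4.48 and -4.01, with limma adjusted p values of 3.4e-04 and 1.2e-04.

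Among the dependent gains, VitusP00149087 had 5.69, 6.79 and 5.82 at veraison and 7.78 when ripe, and array 2 lay about midway. Its green signals were 6.17, 6.00 and 5.99. VitusP00182843 showed 6.84, 7.91 and 6.67 at veraison and 8.76 when ripe, with 7.11, 6.53 and 6.96 in green berries. Their differences of 1.68 (SE 0.40) and 1.62 (SE 0.48) had limma adjusted p values of 0.025 and 0.049, and both exceeded 0.05 without veraison array 3, at 0.064 and 0.10. Leaving out veraison array 1 gave 0.10 for VitusP00182843. It also exceeded 0.05 without green array 1, 2 or 3, at 0.079, 0.072 and 0.081, as did VitusP00149087 without green array 1 or 2, at 0.0501 and 0.051.

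To see where array 2 lay, its position was expressed on a scale on which the mean of arrays 1 and 3 is 0 and the ripe array is 1. This was done for all probes at least 2-fold outside arrays 1 and 3, which are chosen without array 2. Among the 2427 gains the positions formed 1 group, with a median of 0.21 and quartiles of 0.0615 and 0.36. Only 257 of them (10.6%) were at 0.5 or more, and 4 were at 1 or beyond. Array 2 was thus shifted a little toward the ripe array in most gains. Errors of arrays 1 and 3 enter both the choice of probes and the 0 point, so some shift of this kind can arise by construction. How much of the shift this makes up was not tested.

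The 2829 losses had positions at both ends. Array 2 lay on the far side of arrays 1 and 3 from the ripe array in 977 probes (34.5%), and between 0 and 0.25 in 432 (15.3%). Fewest, 266 (9.40%), were between 0.25 and 0.5. The number then rose again, to 346 between 0.5 and 0.75, 406 between 0.75 and 1, and 402 (14.2%) at 1 or beyond, where array 2 was as low as the ripe array or lower. In all, 1154 losses (40.8%) had array 2 at 0.5 or more. The same arrays and the same ripe value enter every probe, so these counts describe these 4 arrays and not the stages.

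**Figure D5:**
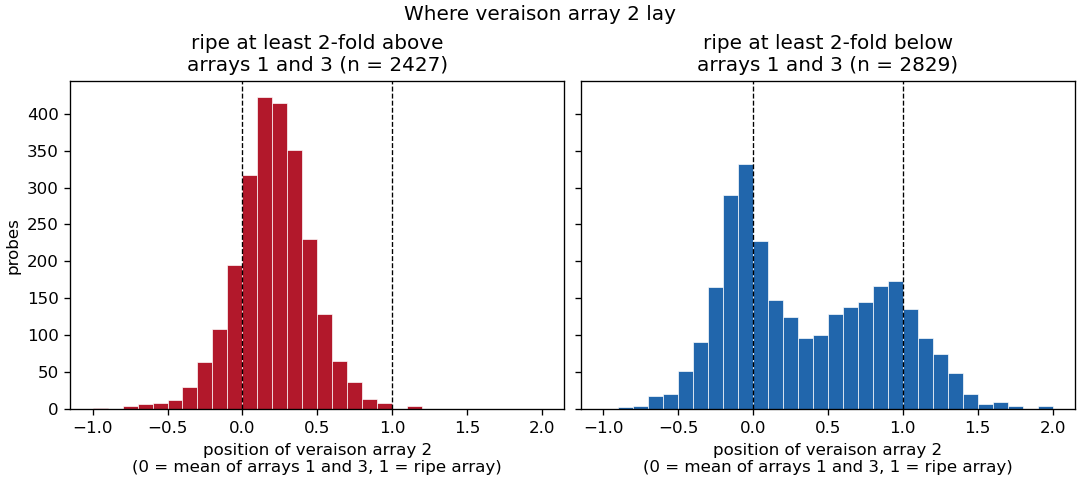
Number of probes by the position of veraison array 2, for the 2427 probes at least 2-fold higher (left) and the 2829 at least 2-fold lower (right) on the ripe array than on veraison arrays 1 and 3; dashed lines mark the mean of arrays 1 and 3 (0) and the ripe array (1), and 3 probes beyond the ends of the axis are drawn in the outermost bars. Gains form 1 peak, with a median of 0.21, and losses form a peak near 0 and another near 1.

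Levels in green berries are given for both kinds of loss. Among the 1675 losses with array 2 under 0.5, the median log2 signal was 11.03 in green berries, 10.46 on veraison arrays 1 and 3, 10.51 on array 2 and 8.26 on the ripe array. Among the 1154 with array 2 at 0.5 or more it was 9.71 in green berries, 9.87 on arrays 1 and 3, 8.14 on array 2 and 7.94 on the ripe array. The median loss against arrays 1 and 3 was similar, -1.73 and -1.67. Whether these groups differ beyond error was not tested, since they were set apart by the data.

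The position of array 2 in the losses also went with the level and the size of the gap. Its median was 0.49 among the 485 losses with arrays 1 and 3 between 6 and 8, 0.33 from 8 to 10, 0.24 from 10 to 12, 0.0729 from 12 to 14 and 0.0318 among the 114 at 14 and over. It was 0.37 among the 1944 losses of 2- to 4-fold and 0.0640 among the 885 of 4-fold and more. The position is divided by the distance from arrays 1 and 3 to the ripe array. A given deviation of array 2 thus gives a smaller position at a larger gap by construction. Array 2 itself was at least 2-fold below arrays 1 and 3 in 1334 probes. Of these, 860 (64.5%) were among the dependent losses and 90 (6.75%) among the losses outside all 3 arrays, where the shares of all probes were 4.35% and 5.47%. The definitions largely set this split. Such a probe is at least 2-fold below all 3 arrays only if its ripe signal is at least 4-fold below arrays 1 and 3. The median signal of the 1334 probes was 9.70 on arrays 1 and 3, 7.94 on array 2 and 8.03 on the ripe array. The part that RNA quality or handling of array 2 or of the ripe array had in these losses was not tested.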

How the data were processed

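Total RNA of pooled berry tissue was labelled with Cy3 and hybridised to NimbleGen oligonucleotide arrays, per the labels' protocols. The deposited table holds log2 signals, 1 per probe and array, for 28811 probes on 7 arrays with 0 missing values. RMA is named in the submitters' processing notes, and its version and settings, the scanning and the background correction are not given in the sources used here. The log base was taken from the range of the values. The deposited scaling was kept, and no detection flag was used. Replicates were separate extractions from 1 pool per stage, so p-values measure only the spread between these extractions. The number of arrays limits the precision.

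Ripe minus veraison was estimated with limma 3.58.1 in R 4.3.3 (lmFit and eBayes on all 7 arrays, stage as the only term, two-sided, Benjamini-Hochberg adjustment over all probes). Ranges, classes and positions were computed with pandas 2.3.3. The fit was tested on simulated data in which all arrays, the ripe one included, had the same spread and none deviated. That test cannot show whether the ripe array meets this assumption. Probes named were, among called probes at least 2-fold outside all 3 veraison arrays, the 2 with the largest gap up and the 2 with the largest gap down, and the same number in each direction among probes that depend on array 2. The comparison, its rules and its lists were chosen with earlier results of these data known. Lists by gene product could not be used because 0 probes matched a gene of the RefSeq table of 29591 genes. Alternatives were 2 other scalings, 50 added before the logarithm, removal of the 25% dimmest probes, other variance estimates, the replicate number as a block, stricter thresholds, other starting levels, and leaving out arrays in turn. Deviations of equally numbered green and veraison arrays correlated at -0.21, -0.12 and 0.05, and equal numbers were therefore not taken as pairs.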

Additional observations from a re-analysis of the deposited data

How the results depend on the processing

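The count of 7039 called probes was 3484 when only the veraison arrays gave the spread, 3159 at an adjusted p under 0.01, and 4412 to 12989 on leaving out each array in turn. With the replicate number as a block, which these numbers do not warrant as a pairing, it was 3468. The 4037 calls of at least 2-fold became 1004 under limma's treat, which is stricter by construction, and 3504 to 5793 on leaving out arrays. Without veraison array 2 losses outnumbered gains among them, 3075 to 2718, as they did when only the green arrays gave the spread (2544 to 2223) and without the 25% dimmest probes (1879 to 1828). Leaving out veraison arrays gave 1579 to 2427 probes above all remaining arrays, 1628 to 2829 below, and 2374 to 3075 that depend on array 2; the first pair was highest without array 2, where the dependent count is not defined. A range over fewer arrays is narrower by construction. At 4-fold the counts were 264 above and 542 below all 3 arrays. A further 469 probes, 126 above and 343 below, were at least 4-fold outside arrays 1 and 3 but not all 3, which is another set than the dependent probes at 2-fold. The other 42 recomputed counts stayed within 1.5 times. No named probe changed sign in 119 recomputations, 4 calls were gained and 15 lost, all among the probes that depend on array 2. The named probes were picked for their large gaps, and every recomputation used the same ripe array. A change of sign was therefore unlikely from the start. Adding 50 to the linear signal compresses dim values and leaves no probe in the class under 6. Losses in the class from 6 to 8, which then also held dimmer probes, were 0.284%. Of 106 recomputed shares by starting class 39 lay outside the binomial interval of the main share, among them those without array 2 given above. That interval treats probes as independent though all share the same arrays, and some settings also change which probes a class holds. Signal over background is unknown here, so differences of dim probes are differences of deposited values only.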

Other observations

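Green array 3 was at least 2-fold below green arrays 1 and 2 in 338 probes, and veraison array 2 at least 2-fold below veraison arrays 1 and 3 in 1334, or 4.63% of all probes. The lists had 0 probes in common. Of the 338 probes, 37 (10.9%) were at least 2-fold below all 3 veraison arrays on the ripe array and 7 (2.07%) were dependent losses, where the shares of all probes were 5.47% and 4.35%. The low probes of the 2 deviating extractions were thus different ones in these data. A probe too dim at a stage cannot be listed there, so the levels at each stage also bear on the overlap. How much they do was not tested.

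Probes with neighbouring identifiers had related differences. Pearson's r of ripe minus veraison between a probe and the next identifier in the table was 0.14 over 28810 pairs, 0.0818 between probes 2 places apart, 0.0356 at 5 places and -0.0070 at 100 places. The deviation of veraison array 2 from arrays 1 and 3 gave 0.17 for neighbours. All pairs share the same arrays, and what the identifier order stands for is not known here, so these values are a description.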
